A study of Mus musculus with 9 samples.

Results

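Transcripts of 9 genes of the red cell lineage were followed in haematopoietic stem cells of old Sphk2 knockout, old wild-type and young wild-type mice. The genes are the transcription factors Gata1 and Klf1, the erythropoietin receptor Epor, the adult globins Hba-a1, Hba-a2, Hbb-bs and Hbb-bt, and the carbonic anhydrases Car1 and Car2. They were chosen by name, not by their values, and all 9 were found by symbol among the 52550 gene identifiers of the count table.

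The old knockout (KO) group had 3 libraries from mice aged 22 to 24 months whose genotype is labelled B6N.129S6-Sphk2tm1Rlp/J (Sphk2 cKO), the old wild-type (WT) group 3 libraries from WT mice of that age range, and the young WT group 3 libraries from WT mice aged 2 months. The sample titles say Sphk2_KO and the labels name no Cre line, so whether the allele is conditional was not settled here. Each library was made from 1000 bone marrow cells that were negative for lineage markers and CD48 and positive for Sca1, c-Kit and CD150, the usual surface profile of long-term stem cells, and red cells had been lysed before the sort. The labels call the 3 libraries of a type technical replicates and name no mouse, so the tests below see no more than the spread between libraries, which may be technical.

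Red cell formation starts when a progenitor raises GATA1, a zinc finger factor that binds GATA motifs, and KLF1, which binds CACCC motifs in the promoters of globin and other red cell genes. The erythropoietin receptor, itself a GATA1 target, carries the hormone signal through JAK2 and STAT5 that keeps these progenitors alive. Adult haemoglobin is built from alpha chains, which mice make from the near-identical neighbours Hba-a1 and Hba-a2, and from beta chains, made in C57BL strains from Hbb-bs and Hbb-bt. Carbonic anhydrases 1 and 2 turn carbon dioxide into bicarbonate in red cells, and carbonic anhydrase 2 also serves other cells such as osteoclasts.

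The near-identity of the globin copies limits what their separate counts can show, so the stretches in which they differ come first. The coding sequences of Hba-a1 and Hba-a2, both 429 nt long on chromosome 11, differ at 1 position, C381T, and those of Hbb-bs and Hbb-bt, both 444 nt long on chromosome 7, differ at 1 position, C417T. Positions are counted from 1 at the first base of the start codon, and the letter before the number belongs to the gene named first. The lines below give coding positions 361 to 401 of the alpha genes and 397 to 437 of the beta genes on the coding strand, in the GENCODE M21 annotation of GRCm38, with the differing base in capitals.
Hba-a1: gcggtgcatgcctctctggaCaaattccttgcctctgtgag
Hba-a2: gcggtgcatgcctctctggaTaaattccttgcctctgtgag
Hbb-bs: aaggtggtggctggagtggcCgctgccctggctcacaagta
Hbb-bt: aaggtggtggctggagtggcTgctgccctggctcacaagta
Of all stretches of 150 bases, the length of 1 read, 48.4% in the Hba-a1 transcript and 65.7% in the Hba-a2 transcript also occurred in the other copy. The shares were 58.7% for Hbb-bs and 50.7% for Hbb-bt, and 0 for the other 5 genes. The number given for reads placed at several sites was 0 in every library, which does not show how such reads were handled. Counts of single globin copies are therefore uncertain, while the alpha sum and the beta sum depend less on how such reads were placed.

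The promoters of the regulators, the receptor and the globins are shown so that the letters GATA1 and KLF1 are known to bind can be looked up in them. RefSeq promoters of GRCm38.p6 were matched for 7 of the 9 genes and are given here for 6 as the 200 bases before the RefSeq start. That start can differ from the GENCODE span given for a gene below. The Gata1 window lies wholly inside its GENCODE span, and those of Hba-a1, Hbb-bs, Hbb-bt and Klf1 in part. Capitals mark, on either strand, the CACCC motif of KLF1, the core GATAA of the GATA1 motif (written TTATC where it lies on the other strand), the CCAAT box (written ATTGG on the other strand) and ATATAA as a form of the TATA box.
Hba-a1, chr11:32283472-32283671, plus strand: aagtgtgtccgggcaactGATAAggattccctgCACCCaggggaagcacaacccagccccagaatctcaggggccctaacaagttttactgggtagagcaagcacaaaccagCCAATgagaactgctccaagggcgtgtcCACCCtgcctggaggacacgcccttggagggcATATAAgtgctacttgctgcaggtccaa
Hbb-bs, chr7:103827929-103828128, minus strand: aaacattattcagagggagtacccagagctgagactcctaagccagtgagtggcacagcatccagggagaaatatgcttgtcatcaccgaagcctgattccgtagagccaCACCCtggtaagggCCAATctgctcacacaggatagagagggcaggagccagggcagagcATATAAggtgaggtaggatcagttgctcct
Hbb-bt, chr7:103813924-103814123, minus strand: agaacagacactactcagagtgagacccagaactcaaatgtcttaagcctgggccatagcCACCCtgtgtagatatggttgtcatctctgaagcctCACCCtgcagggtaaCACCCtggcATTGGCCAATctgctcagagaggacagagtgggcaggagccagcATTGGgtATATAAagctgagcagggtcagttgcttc
Klf1, chr8:84901782-84901981, plus strand: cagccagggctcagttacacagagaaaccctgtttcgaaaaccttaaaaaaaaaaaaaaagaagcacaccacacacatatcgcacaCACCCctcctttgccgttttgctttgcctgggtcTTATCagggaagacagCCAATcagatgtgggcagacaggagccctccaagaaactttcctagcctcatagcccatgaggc
Epor, chr9:21963577-21963776, minus strand: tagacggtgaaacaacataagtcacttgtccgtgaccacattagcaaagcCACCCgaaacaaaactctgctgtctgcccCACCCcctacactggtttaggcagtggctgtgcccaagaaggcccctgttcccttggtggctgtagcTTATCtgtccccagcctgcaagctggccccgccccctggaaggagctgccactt
Gata1, chrX:7967911-7968110, minus strand: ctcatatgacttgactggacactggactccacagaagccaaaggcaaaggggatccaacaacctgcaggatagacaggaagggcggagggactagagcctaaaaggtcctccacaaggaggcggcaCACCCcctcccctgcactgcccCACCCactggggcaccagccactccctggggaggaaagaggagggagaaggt
The Hba-a2 promoter was identical to that of Hba-a1 at all 247 bases compared, at an offset of 3 bases. Every one of the 7 promoters held a CACCC, a motif found in 45.5% of the 32851 mouse promoters of this length. GATAA, found in 18.1% of all promoters, was present in Hba-a1, Hba-a2, Klf1 and Epor and was not among the letters of Gata1, Hbb-bs or Hbb-bt. A CCAAT box, found in 29.3% of all promoters, was present in Klf1 and in the 4 globin genes, and ATATAA, found in 7.30%, in the 4 globin genes and in no other of the 7. In Hba-a1 the ATATAA lay 28 to 23 bases before the start and in Hbb-bs 30 to 25 bases before it. These matches are descriptions of the sequence and no sign that a factor is bound.

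The libraries differed in depth and in how much of their sequence lay in genes, and every value below has to be read against this. Counts in genes were between 11284847 and 17544945 in old KO, 3145167 and 5115003 in old WT and 28088637 and 74021822 in young WT libraries. Counts outside genes made up 45.03% to 61.9% of all counts in old KO, 80.8% to 87.7% in old WT and 6.51% to 12.5% in young WT libraries. Background was read from the exons of olfactory receptor genes, which serve smell and not blood, and came to 5.55 to 7.29 reads per kb in old KO, 5.41 to 10.4 in old WT and 1.09 to 1.43 in young WT libraries. A gene was taken as above background in a library when it reached 20 counts and its count per exon length was no less than 5 times this density. Sphk2, the deleted gene, had 12, 23 and 8 counts in old KO, 20, 1 and 35 in old WT and 1684, 88 and 576 in young WT libraries. It was above background in 0 of the 6 old libraries, so its counts cannot check the KO labels (log2 fold change of old KO over old WT −0.12 ± 1.31 SE).

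In young WT stem cells each of the 9 genes was above background in at least 2 of the 3 libraries, in 23 of 27 gene and library pairs in all. In the old libraries Car2 alone was. It passed in 3 of 3 old KO and in 2 of 3 old WT libraries, and each of the other 8 genes in 0 of 6. Of 21819 protein-coding genes, 7379 to 8122 were above background in young WT libraries. The numbers were 2877 to 4171 in old KO and 640 to 1129 in old WT libraries. Levels are given as counts and as CPM, counts per 1000000 counts in genes, with means ± SD of 3 libraries. In such bulk samples fewer cells of a type and less RNA per cell cannot be told apart.

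**Figure D1:**
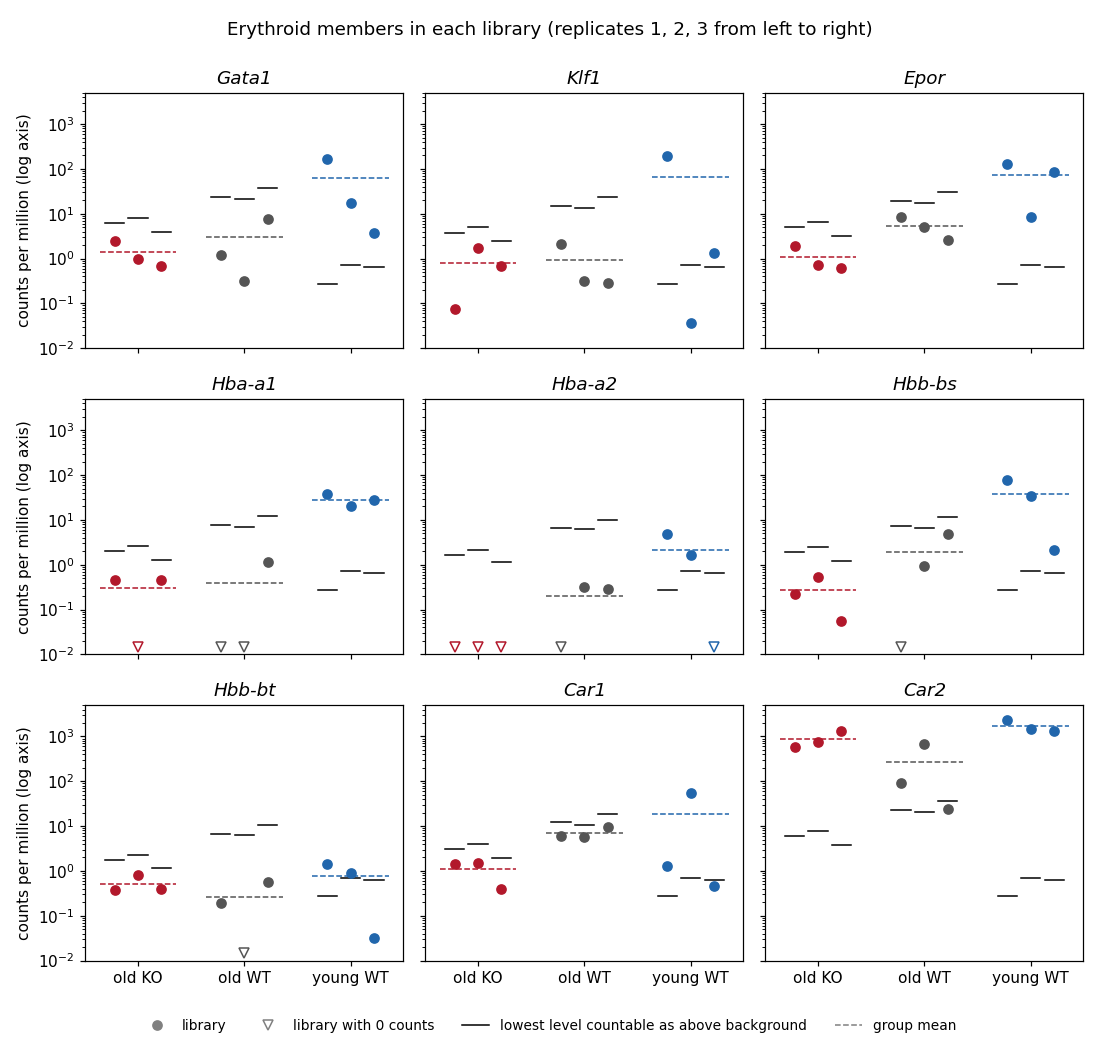
CPM (log axis) of each of the 9 genes in each library of old KO, old WT and young WT stem cells. Points are libraries, open triangles are libraries with 0 counts, dashed lines are group means, and short black lines are the lowest level that would have counted as above background in that library. Car2 lies above that level in all but 1 library, while the other genes lie below it in every old library.

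Gata1 (ENSMUSG00000031162, X:7959260-7978071, minus strand) had 33, 11 and 12 counts in old KO, 6, 1 and 26 in old WT and 12560, 476 and 114 in young WT libraries. All 3 young WT libraries were above background, but they spanned 170, 16.9 and 3.67 CPM, with the first library 46.2 times the third. Means were 1.37 ± 0.948 CPM in old KO, 3.01 ± 3.95 CPM in old WT and 63.4 ± 92.3 CPM in young WT libraries. The lowest level at which Gata1 could have passed as above background was 3.85 to 7.87 CPM in old KO and 21.0 to 36.8 CPM in old WT libraries. Of the young WT libraries 2 lay above the whole of the first range and 1 above the whole of the second, so a level like that of the third young WT library was not detectable in any old library.

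Klf1 (ENSMUSG00000054191, 8:84901928-84905291, plus strand) had 1, 19 and 12 counts in old KO, 11, 1 and 1 in old WT and 14634, 1 and 42 in young WT libraries. Nearly all of its counts thus came from the first young WT library, at 198 CPM, where Gata1 was also highest. The second young WT library had 1 count, as few as 2 of the old WT libraries. Means were 0.814 ± 0.813 CPM in old KO, 0.919 ± 1.07 CPM in old WT and 66.4 ± 114 CPM in young WT libraries, and the ranges of all 3 groups overlapped.

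Epor (ENSMUSG00000006235, 9:21958897-21963506, minus strand) had 26, 8 and 11 counts in old KO, 44, 16 and 9 in old WT and 9349, 235 and 2628 in young WT libraries. It was above background in every young WT library, at 126, 8.37 and 84.7 CPM. The old KO values, 1.09 ± 0.731 CPM, lay below those of old WT, 5.43 ± 3.01 CPM, without overlap, but all 6 were between 0.435 and 2.23 times the background count. The second young WT library, at 8.37 CPM, fell below the first old WT library, at 8.60 CPM.

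Among the alpha globins, Hba-a1 (ENSMUSG00000069919, 11:32283511-32284465, plus strand) had 6, 0 and 8 counts in old KO, 0, 0 and 4 in old WT and 2820, 562 and 856 in young WT libraries. Its young WT levels of 38.1, 20.01 and 27.6 CPM differed by a factor of 1.90, the smallest spread among the 9 genes but for Car2. They lay above the highest level needed to pass the background in old KO libraries, 2.62 CPM, and in old WT libraries, 12.3 CPM. An Hba-a1 value in CPM like that of the young WT libraries would therefore have been counted in any old library. CPM are shares of the counts in genes, which differed between the groups. Whether an equal amount of RNA per cell would have been counted was not tested. Hba-a2 (ENSMUSG00000069917, 11:32296489-32297298, plus strand) had 0 counts in every old KO library, 0, 1 and 1 in old WT and 356, 46 and 0 in young WT libraries. Against a floor of 3 counts over the old KO group, which is 0.0709 CPM, its pooled level was at least 42.6-fold lower in old KO than in young WT, where it was 3.02 CPM. That bound leans on the first young WT library, with 356 of the 402 young WT counts, and was 10.97-fold without it and 24.9-fold without the third old KO library, settings chosen after seeing the data. Floors cover counting error only. The third young WT library also had 0 counts, so the CPM ranges of Hba-a2 in old KO and young WT overlapped. The level needed to pass the background for it in old KO libraries was 1.14 to 2.15 CPM, above that floor.

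Of the beta globins, Hbb-bs (ENSMUSG00000052305, 7:103826534-103828096, minus strand) had 3, 6 and 1 counts in old KO, 0, 3 and 17 in old WT and 5823, 975 and 66 in young WT libraries. Its young WT libraries were all above background, at 78.7, 34.7 and 2.13 CPM, and the third of them lay below the third old WT library, at 4.93 CPM. Hbb-bt (ENSMUSG00000073940, 7:103812524-103813996, minus strand) had 5, 9 and 7 counts in old KO, 1, 0 and 2 in old WT and 106, 25 and 1 in young WT libraries. It was the lowest of the 9 genes in young WT cells, at 0.785 ± 0.706 CPM, and its highest young WT library, at 1.43 CPM, reached the level needed to pass the background in 1 old library, the third of old KO, where that was 1.14 CPM.

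The 4 adult globin genes together gave 14, 15 and 16 counts in old KO, 1, 4 and 24 in old WT and 9105, 1608 and 923 in young WT libraries. In CPM the sums were 1.09 ± 0.214 in old KO, 2.81 ± 3.64 in old WT and 70.0 ± 47.9 in young WT libraries, and every young WT sum was above every old one. The chains did not keep 1 ratio between young WT libraries. The alpha sum was 42.9, 21.6 and 27.6 CPM and the beta sum 80.1, 35.6 and 2.16 CPM, so that beta counts led in the first and second library and alpha counts in the third. Within the alpha chain Hba-a1 held 88.8%, 92.4% and 100% of the counts, and within the beta chain Hbb-bs held 98.2%, 97.5% and 98.5%. Because reads of the shared stretches could be placed on either copy or on none, these shares describe the counting as well as the transcripts.

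**Figure D2:**
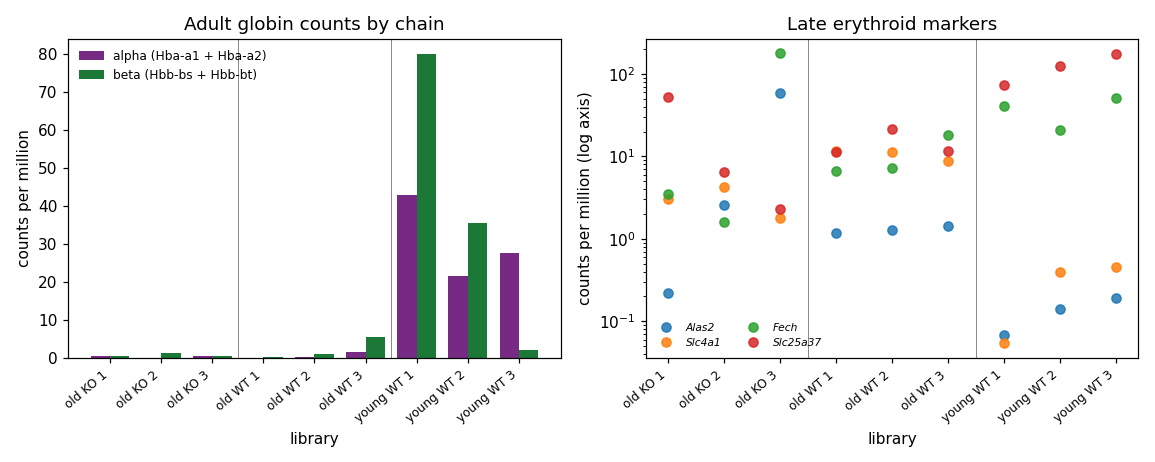
Left, summed CPM of the alpha globins (purple) and the beta globins (green) in each library. Right, CPM (log axis) of 4 genes of late red cell precursors in the same libraries. The globin sums of the young WT libraries lie between 29.7 and 123 CPM, against at most 1.33 CPM in old KO and 6.96 CPM in old WT libraries. Slc4a1 and Alas2 are lowest in young WT libraries, where, as in old WT libraries, both are below background.

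Car1 (ENSMUSG00000027556, 3:14766216-14808368, minus strand) had 19, 17 and 7 counts in old KO, 31, 18 and 33 in old WT and 97, 1520 and 14 in young WT libraries. It was the only one of the 9 genes whose highest young WT value was not in the first library, with 1.31, 54.1 and 0.451 CPM. The first and the third young WT library lay below all 3 old WT libraries, which had 6.06, 5.72 and 9.57 CPM and were 2.505 to 2.66 times their background. The old KO libraries, at 0.399 to 1.51 CPM, lay below the old WT libraries without overlap and were 1.01 to 2.27 times their background.

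Car2 (ENSMUSG00000027562, 3:14886273-14900770, plus strand) was the abundant member. It had 8033, 8721 and 22866 counts in old KO, 477, 2178 and 82 in old WT and 175135, 41974 and 41923 in young WT libraries. The CPM were 597, 773 and 1303 in old KO, 93.3, 692 and 23.8 in old WT and 2366, 1494 and 1351 in young WT libraries. The old KO libraries lay between the other groups, below every young WT library and above the first and the third old WT library, with the second old WT library inside their range. The third old WT library, at 3.25 times its background, was the only library in which Car2 did not pass. Per kilobase of exon Car2 ranked between 123 and 217 among 21819 protein-coding genes in old KO, between 174 and 1078 in old WT and between 75 and 111 in young WT libraries.

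Compared as RPKM, the CPM divided by the exon length in kilobases, which allows genes of different length to be set side by side, Car2 stood first in young WT cells with a mean of 717 ± 227. Hbb-bs followed at 50.1 ± 50.01, Klf1 at 43.4 ± 74.3, Epor at 36.8 ± 30.1, Hba-a1 at 35.2 ± 11.2, Gata1 at 26.0 ± 37.8 and Car1 at 14.9 ± 24.6, none of which differed from its neighbour beyond the spread. Hba-a2 at 3.22 ± 3.67 and Hbb-bt at 1.12 ± 1.00 were lowest. The places of the globins are uncertain, since 48.4% to 65.7% of their stretches of 150 bases were shared between copies. How reads of such stretches were counted is not known. Large spreads were common in the young WT libraries. Of 7267 genes with a mean of at least 10 CPM there, 49.1% differed more than 10-fold between the highest and the lowest library, with a median of 9.46-fold. Gata1, Klf1, Epor, Hbb-bs, Hbb-bt and Car1 lay above this median and Hba-a1 and Car2 below it, at 1.90- and 1.75-fold. The first young WT library, the deepest, held the highest CPM of each of the 9 genes but Car1.

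The groups were compared with edgeR's quasi-likelihood test over 32582 genes, and a gene was called when its Benjamini-Hochberg adjusted p was under 0.05. Of the 9 genes 8 passed the filter on low counts. Hba-a2 did not and was not tested. Some of the 8, such as Hba-a1, passed mainly through young WT libraries, while Epor and Car1 were also high enough in old WT libraries. The counts of calls below therefore describe these genes and are not offered as support for a direction. The fold changes rest on TMM scaling, with factors of 0.172 to 0.331 in young WT, 3.20 to 5.45 in old WT and 0.725 to 1.37 in old KO libraries. With library totals alone the median of all genes moved by 3.92 on the log2 scale in old WT against young WT, by −1.90 in old KO against old WT and by 2.01 in old KO against young WT.

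The question the knockout addresses is whether loss of Sphk2 changes old stem cells. In old KO against old WT cells 0 of the 8 genes were called, where 0.457% of all tested genes were, each of them higher in old KO. DESeq2 and limma-voom also called 0 of the 8. The largest difference was that of Car2, with a log2 fold change of 3.53 ± 1.23 (SE, edgeR adjusted p = 0.233, unadjusted p = 0.0111). Hbb-bt followed with 2.80 ± 1.26 (edgeR adjusted p = 0.386, unadjusted p = 0.0414), at levels below background in all 6 libraries. Gata1 had 1.01 ± 1.45, Klf1 1.47 ± 1.95 and Hba-a1 1.98 ± 1.58, and each of the 3 turned negative with library totals alone. Epor had −0.56 ± 1.24, Hbb-bs −0.86 ± 1.55 and Car1 −0.88 ± 1.42. The CPM ranges of Epor and Car1 did not overlap between the groups and were lower in old KO, as were those of 48.8% of all tested genes, with 50.7% apart in either direction. Levels of 7 of the 8, all but Car2, were below background in both groups, so these data do not show how their transcripts compared below that limit.

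In old KO against young WT cells 6 of the 8 genes fell, where 5.84% of all tested genes fell, 6.91% rose and 12.8% were called in either direction. Their log2 fold changes were −9.68 ± 2.14 for Hbb-bs (edgeR adjusted p = 0.0308), −8.99 ± 2.61 for Klf1 (0.0416), −8.55 ± 1.97 for Hba-a1 (0.0310), −8.46 ± 1.69 for Epor (0.0298), −8.10 ± 1.93 for Gata1 (0.0316) and −5.88 ± 1.73 for Car1 (0.0425). Car2, at −3.03 ± 1.20 (edgeR adjusted p = 0.0817), and Hbb-bt, at −2.92 ± 1.07 (edgeR adjusted p = 0.0680), did not pass. The median of the 8 was −8.28, against 1.20 over all tested genes. In old KO libraries all of the 8 but Car2 were below background, so the sizes of their folds are uncertain. CPM ranges did not overlap for Gata1, Epor, Hba-a1, Hbb-bs and Car2, each lower in old KO, as for 4.06% of all tested genes, with 57.6% apart in either direction. None of the calls held when any 1 of the 3 old KO libraries was left out, a setting in which 0 genes of the whole table were called. Without the first young WT library the fold change of Klf1 was −1.87 (edgeR adjusted p = 0.313), and without the second that of Car1 was −2.38 (0.0731).

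The question of the WT groups is how stem cells change with age. In old WT against young WT cells the 8 tested genes fell, where 18.4% of all tested genes fell, 18.6% rose and 37.0% were called in either direction. Hba-a1 had a log2 fold change of −10.54 ± 2.14 (edgeR adjusted p = 0.00686), Klf1 −10.47 ± 2.77 (0.0151), Gata1 −9.11 ± 2.01 (0.00861), Hbb-bs −8.82 ± 2.06 (0.0102), Epor −7.90 ± 1.65 (0.00733), Car2 −6.56 ± 1.42 (0.00801), Hbb-bt −5.72 ± 1.29 (0.00918) and Car1 −5.01 ± 1.65 (0.0319). The median of the 8 was −8.36, against 1.37 over all tested genes. CPM ranges did not overlap for Hba-a1 and Car2, which were lower in old WT, as were those of 5.87% of all tested genes, with 70.9% apart in either direction.

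These folds depend on the scaling and, for some genes, on 1 library. With library totals alone Hbb-bt was at −1.57 and Car1 at −1.36 in old WT against young WT and neither was called, while the other 6 were called at −6.22 to −2.67. That scaling called 1116 genes lower and 22308 higher, against 5996 lower and 6060 higher with TMM. In old KO against young WT it called 1277 genes lower and 17171 higher, against 1902 lower and 2253 higher with TMM. The call of Klf1 in old WT against young WT was lost without the first young WT library, at −3.36 (edgeR adjusted p = 0.0876), and without the second or the third old WT library, at −10.25 and −10.09. That of Car1 was lost without the second young WT library, at −1.54 (edgeR adjusted p = 0.144), and without any of the 3 old WT libraries, at −5.11 to −5.05. When the background was subtracted from each library, 0 of the 8 and 12 of 8629 genes in all were called, with folds between −13.53 for Klf1 and −1.24 for Car1. Both comparisons with young WT share the young WT libraries, both with old WT the old WT libraries and both with old KO the old KO libraries.

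**Figure D3:**
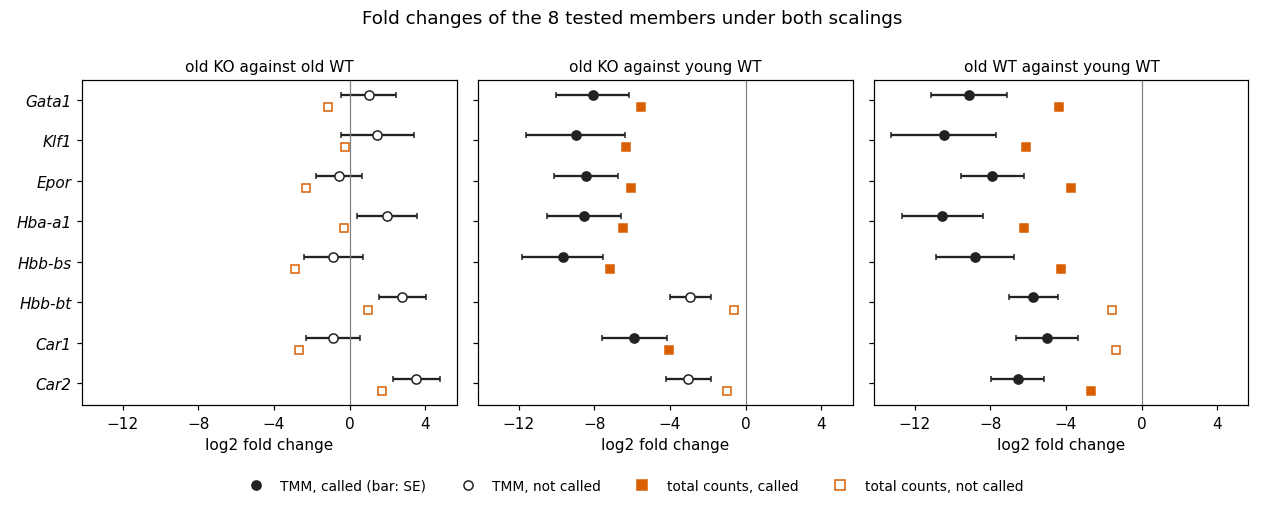
Log2 fold changes of the 8 tested genes in old KO against old WT (left), old KO against young WT (middle) and old WT against young WT (right). Circles with bars are TMM-scaled values with their SE, squares are values with library totals alone, and filled symbols passed an adjusted p of 0.05. In the middle and right panels 6 and 8 circles are filled and all lie below 0, while in the left panel none is filled.

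Beyond the 9 genes, 91 genes of 7 lists of the red cell programme were found in the table, and 89 were tested. Between old KO and old WT 0 of the 89 were called, while 26 had an unadjusted p under 0.05 and were higher in old KO, as were 9.63% of all tested genes, with 2.19% lower. With library totals alone that direction turned for many, with 20 lower and 9 higher, where 26.8% of all tested genes were lower and 2.90% higher. DESeq2 called 18 of the 89 higher and 0 lower in old KO, against 6.07% higher and 0.479% lower among all tested genes, and limma-voom 2 higher and 0 lower, against 1.10% and 0.0522%. Of the 89, 16 fell and 2 rose in old KO against young WT, where 5.84% of all tested genes fell and 6.91% rose, and 0 were called without any 1 of the 3 old KO libraries. The balance was the opposite with library totals alone, with 9 lower and 22 higher. Of all 32582 tested genes that scaling called 1277 lower and 17171 higher. Thinned counts gave 2 lower and 20 higher of 77 tested, where 359 of all 18673 genes tested were lower and 9196 higher. In old WT against young WT 48 fell and 5 rose, where 18.4% of all tested genes fell and 18.6% rose, and 24 or 25 fell without any 1 of the 3 old WT libraries. Here too the balance turned, to 14 lower and 29 higher with library totals alone, where 1116 of 32582 genes were lower and 22308 higher. With thinned counts 14 were lower and 17 higher, where 1293 of 18673 genes were lower and 9189 higher. Once the background was subtracted, 0 of 55 tested were called in either comparison with young WT. Of all 8629 genes tested then, 12 were called in old WT and 4 in old KO against young WT. In the lists that follow, a log2 fold change is given with its SE. Their counts of calls and of genes above background are to be read against the numbers over all genes given above.

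Some transcription factors listed for the red cell lineage were measurable in old KO cells, unlike Gata1 itself. Of 17 such genes, 10 were above background in at least 2 old KO libraries, 1 in at least 2 old WT libraries and 16 in at least 2 young WT libraries. The list is not particular to red cells, and Gata2 is also among the stem cell markers read below. Gata2, the relative that GATA1 replaces as red cells form, averaged 818 ± 120 CPM in old KO, 215 ± 326 in old WT and 1004 ± 124 in young WT libraries, with a log2 fold change of 3.63 ± 1.27 in old KO against old WT that was not called (edgeR adjusted p = 0.237). Lmo2, which bridges GATA1 and TAL1, averaged 536 ± 34.4 CPM in old KO and 292 ± 438 CPM in old WT libraries and was not called either (edgeR adjusted p = 0.423). In old WT against young WT 14 of the 17 fell and 0 rose, with a median of −5.88. They included Gfi1b, a repressor needed for red cells and platelets, at −8.59 ± 2.09, the adaptor Ldb1 at −7.76 ± 1.68, the lymphoid and erythroid factor Ikzf1 at −7.25 ± 1.55 and Nfe2 at −7.09 ± 1.57. Scaled by library totals alone, 5 of the 17 fell, at a median of −1.70. Ikzf1, at −4.60 ± 1.37 (edgeR adjusted p = 0.0437), was the 1 of the 17 that fell in old KO against young WT, and with library totals alone 0 did.

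Of 14 genes that carry the erythropoietin signal, 6 were above background in at least 2 old KO libraries, 0 in at least 2 old WT libraries and 12 in at least 2 young WT libraries. In old WT against young WT 11 fell and 1 rose, with a median of −5.10, and among those that fell were the adaptor Grb2 at −8.35 ± 1.52, the signal transducer Stat5b at −7.83 ± 1.504, its target Cish at −7.56 ± 1.76 and the survival gene Bcl2l1 at −6.32 ± 1.37. Erfe, the red cell hormone erythroferrone, was the gene that rose, with 24, 37 and 20 counts in old WT and 7, 0 and 1 in young WT libraries, below background in all 6. Old KO cells had 6 that fell against young WT, among them Bcl2l1 at −6.32 ± 1.37, the kinase Lyn at −5.84 ± 1.38, Podxl at −5.41 ± 1.36 and the feedback inhibitor Socs2 at −4.87 ± 1.42. Socs3, another feedback inhibitor, had 15429, 12096 and 10574 counts in old KO and 31, 8 and 823 in old WT libraries, with a log2 fold change of 5.79 ± 1.60 that was not called (edgeR adjusted p = 0.134). Library totals alone left 3 of the 14 lower and 1 higher in old WT against young WT, and 3 lower and 2 higher in old KO against young WT.

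The enzymes and carriers of haem synthesis were mostly at background in old cells. Of 14, 3 were above background in at least 2 old KO libraries, 0 in at least 2 old WT libraries and 12 in at least 2 young WT libraries. In old WT against young WT 11 fell and 0 rose, with a median of −5.06, among them the porphyrinogen carrier Tmem14c at −10.30 ± 1.84, protoporphyrinogen oxidase Ppox at −7.18 ± 1.99 and mitoferrin 1, Slc25a37, at −6.95 ± 1.52. Library totals alone left 3 of the 14 lower. Against young WT, 5 fell and 1 rose in old KO. Those that fell included Ppox at −6.85 ± 1.96 and the transporter Abcb10 at −5.81 ± 1.71. The gene that rose was Alas2, the red cell form of the first enzyme of the pathway, at 5.68 ± 1.80 (edgeR adjusted p = 0.0495), with 3, 29 and 1020 counts in old KO, 6, 4 and 5 in old WT and 5, 4 and 6 in young WT libraries. Only the third old KO library was above background for it, and that library also held 3113 counts of ferrochelatase, Fech, against 47 and 18 in the other old KO libraries. In the same library Gata1 and Klf1 had 12 counts each and the 4 globins 16 together.

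The other globins were not measurable in any group. None of the 6 embryonic and minor globin genes was above background in any of the 9 libraries. Of the 5 tested, Hba-x, the embryonic zeta chain, passed as higher in old WT than in young WT, with 13, 0 and 35 counts in old WT and 0 counts in each young WT library. With library totals alone all 5 were called higher in old WT, and Hba-x also in old KO against young WT. Among 8 genes of globin protection and haem removal, 5 fell and 0 rose in old WT against young WT, including biliverdin reductase B, Blvrb, at −6.18 ± 1.65 and the peroxiredoxin of red cells, Prdx2, at −5.27 ± 1.67. By library totals alone 0 of the 8 were called. Blvra, at −5.02 ± 1.44, was the 1 that fell in old KO against young WT, and 0 rose.

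Membrane and skeleton genes of the red cell divided. Of 18, 7 fell and 2 rose in old WT against young WT, with a median of −0.23. Glycophorin C, Gypc, was at −9.18 ± 1.97, the water channel Aqp1 at −8.145 ± 1.64, the glucose transporter Slc2a1 at −7.61 ± 1.76 and Xk at −5.32 ± 1.53. Both genes that rose, among them dematin, Dmtn, were below background in every library. By library totals alone 3 fell and 10 rose. Old KO cells against young WT had 3 that fell, Aqp1 at −6.44 ± 1.52, Rhd at −5.76 ± 1.58 and Xk at −5.08 ± 1.51, and 1 that rose.

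The other carbonic anhydrases were near background in most libraries. Of 14 further family members, 0 were above background in at least 2 old KO or old WT libraries and 1, Car13, was in young WT. In old WT against young WT 0 of 13 tested fell and 1 rose, Car5b, a mitochondrial form, at 3.06 ± 0.90, with 31, 14 and 164 counts in old WT against 6, 3 and 5 in young WT libraries and below background in all 6. By library totals alone 13 of 13 were called higher. Of the 13, 0 were called in old KO against young WT by edgeR with TMM, DESeq2 or limma-voom, 2 had an unadjusted p under 0.05 in edgeR, and 9 were called higher with library totals alone.

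**Figure D4:**
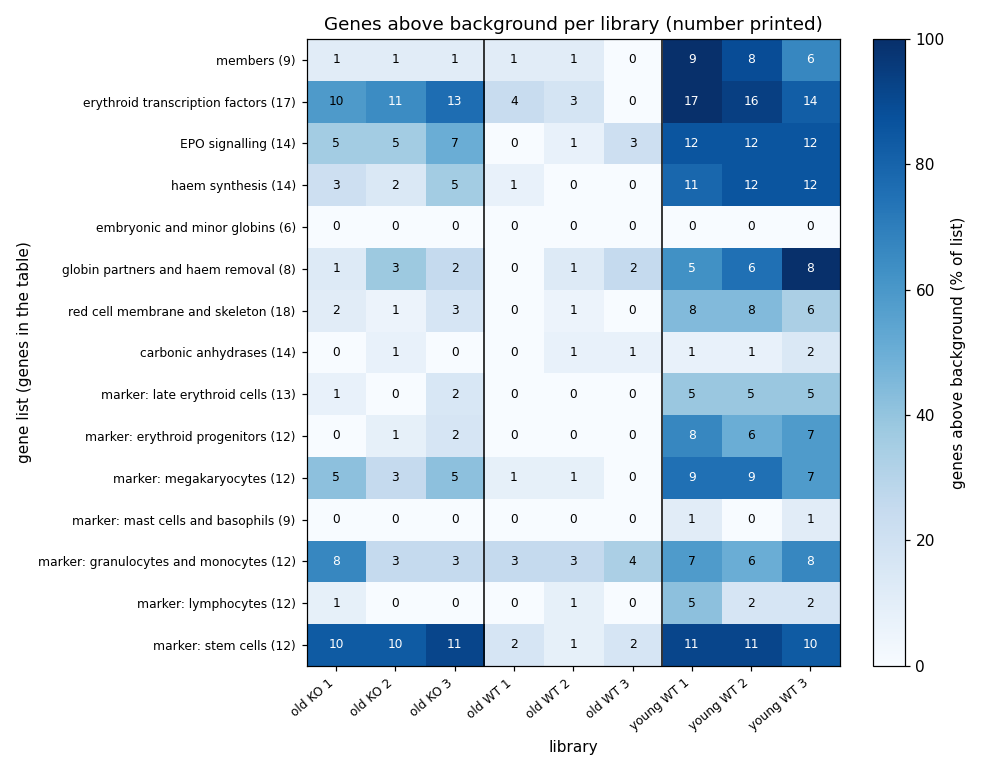
Number of genes above background (printed) in each gene list and library, shaded by the percentage of the list. Columns are the libraries of old KO, old WT and young WT cells, and the number of genes of a list in the count table follows its name. The lists of erythroid transcription factors, erythropoietin signalling and haem synthesis are darkest in young WT libraries, paler in old KO and palest in old WT. All protein-coding genes showed the same order in the number above background. Of the 12 stem cell markers, 10 or 11 are above background in each old KO and young WT library and 1 or 2 in each old WT library.

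Markers of cells that the sort could have let through were read beside these values. Of 13 genes of late red cell precursors, 0 were above background in at least 2 old KO libraries, 0 in at least 2 old WT libraries and 5 in young WT, namely Hemgn, Rhag, Slc25a37, Fech and Bpgm. Their summed level was 47.9 to 257 CPM in old KO, 119 to 186 CPM in old WT and 122 to 272 CPM in young WT libraries. Among the rest of the 13, Slc4a1, the anion exchanger of red cells, had 4, 11 and 14 counts in young WT libraries, and Alas2 had 5, 4 and 6. These 2 genes were picked after their values were seen. Of 12 markers of earlier red cell progenitors, which include Gata1, Klf1, Epor and Car1, 1 was above background in at least 2 old KO libraries (Tfrc), 0 in old WT and 8 in young WT, with sums of 32.0 to 105 CPM in old KO, 80.8 to 143 CPM in old WT and 152 to 612 CPM in young WT libraries. Cldn13 had 0 counts in all young WT libraries. The part of such cells in the levels of the 9 genes was not tested beyond these values.

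Markers of other lineages varied too. Of 12 megakaryocyte genes 4 were above background in at least 2 old KO libraries, 0 in old WT and 8 in young WT, with sums of 599 to 1089 CPM in old KO, 224 to 498 CPM in old WT and 604 to 1148 CPM in young WT libraries. Of 9 mast cell and basophil genes 0 were above it in old KO, 0 in old WT and 1 in young WT, with sums of 7.41 to 17.2 CPM in old KO, 28.3 to 79.8 CPM in old WT and 1.14 to 1.32 CPM in young WT libraries, where Tpsb2 had 0 counts. Of 12 granulocyte and monocyte genes 4 were in old KO, 2 in old WT and 6 in young WT, with sums of 1144 to 2291 CPM in old KO, 726 to 1195 CPM in old WT and 719 to 1080 CPM in young WT libraries. Lymphocyte genes, 12 in number, had 0 in old KO, 0 in old WT and 2 in young WT, with sums of 16.9 to 179 CPM in old KO, 129 to 164 CPM in old WT and 86.8 to 170 CPM in young WT libraries. Of 12 stem cell genes 11 were above background in at least 2 old KO libraries, 0 in old WT and 10 in young WT, with sums of 1944 to 4070 CPM in old KO, 706 to 1998 CPM in old WT and 2309 to 2659 CPM in young WT libraries. The labelled cell type was thus seen in most of these markers in old KO and young WT libraries, while in old WT libraries no marker was above background in more than 1 library.

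The pattern of a gene over the 9 libraries was also compared with that of 8937 genes with a mean of at least 10 CPM, as the mean absolute difference of centred log2 CPM. Most like Gata1 were Pafah1b3 at 0.71, Pglyrp2 at 0.71, Vps52 at 0.78, Med9 at 0.85 and Trmt10c at 0.85. Pafah1b3 had 45, 13 and 15 counts in old KO, 21, 9 and 62 in old WT and 10134, 1208 and 227 in young WT libraries, with the same order of the young WT libraries as Gata1. Most like the globin sum were Dcps at 0.71, Snx12 at 0.71, Mrpl40 at 0.72, Ubr7 at 0.73 and Med30 at 0.74. Most like Car2 were Rpl15 at 0.38, Cox8a at 0.47, Epb41l4aos at 0.50, Rpl4 at 0.53 and Tagln2 at 0.54. Rpl15, a ribosomal protein gene, had 19830, 16137 and 37581 counts in old KO, 477, 4181 and 201 in old WT and 169629, 82867 and 88634 in young WT libraries. None of these 15 genes is one of the 9 or belongs to the red cell lists.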

How the data were processed

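What the authors deposited is a single table of raw counts, with the reads of each gene in a column per library (9 columns). Software in the submitters' processing notes is STAR 2.6.1d, Trim Galore 0.6.2, HTSeq 0.10.0 and edgeR 3.24.3, with genome mm10. Neither annotation nor strand setting is given in the sources used here, so reads of a gene and an antisense partner cannot be told apart. The table has 52550 gene identifiers, of which 52403 got a symbol and an exon length from GENCODE M21, and 5 lines for reads outside single genes, which were left out of all totals and tests.

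Counts were scaled to CPM of the counts in genes. Groups were compared with edgeR 4.0.16 (R 4.3.3, limma 3.58.1): quasi-likelihood F test on all 9 libraries, 1 mean per group, TMM factors, filterByExpr, Benjamini-Hochberg adjustment over 32582 genes at 0.05. SE is the absolute fold change divided by the square root of F. Fold changes are log2 and positive where the group named first is higher. DESeq2 1.42.0, limma-voom, other scalings and filters, thinned counts, background subtraction, a replicate block and left-out libraries were the alternatives. The background used 1122 of 1134 olfactory receptor genes, without the densest 1%. The script was tested on simulated counts.

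Named genes were the 9 members, Sphk2 and, per list and comparison, up to 4 called genes with the largest fold change, if their mean reached 10 CPM in either group, or the 2 most abundant where none was called. The text prints a part of them. Other genes, such as Erfe, Fech, Hba-x, Dmtn and the markers, were named after their values were seen. Members and lists were chosen with earlier results of these data known. Ahsp was not matched by symbol. Values of some genes of the lists are not reported here.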

Additional observations from a re-analysis of the deposited data

How the results depend on the processing

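Of the 143 fold changes recomputed under other settings in old WT against young WT, 122 kept their direction and call, and 21 lost the call. Of 140 in old KO against old WT 132 did and 8 changed sign. Of 144 in old KO against young WT 103 did, 37 lost the call, 3 gained it and 1 changed sign. Of the 9 genes, 8 were called in old WT against young WT, 5 with thinned counts and 0 with the background subtracted, and leaving out a library gave 6 to 9. Against young WT 6 were called in old KO, 0 with the replicate block, 0 with the background subtracted, and 0 to 8 when a library was left out. Between old KO and old WT 0 were called under every setting run. The sign changes were, in old KO against old WT, −1.15 for Gata1, −0.25 for Klf1 and −0.29 for Hba-a1 with library totals alone, and for Hbb-bs 0.23 with thinned counts, 0.59 with the copies summed and 0.11 with limma-voom. With a library left out Epor ranged from −1.10 to 0.0057, positive without the first old WT library, and Hbb-bs from −1.47 to 0.67, positive without the third old WT library. Car2 was at 0.43 with thinned counts in old KO against young WT. The cause was not tested, except that fewer genes (8629) were tested with the background subtracted.

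Replicate numbers were not shown to pair libraries: deviations from group means correlated at −0.03 to 0.02 between libraries of the same number, and with the replicate block 7 of the 9 genes were called in old WT against young WT. The calls over all genes were 149 in old KO against old WT, 0 with the 6 compared libraries alone and 2134 with DESeq2. They were 4155 in old KO against young WT, 0 with the replicate block and 18448 with library totals, and 12056 in old WT against young WT, 12 with the background subtracted and 23424 with library totals. With upper-quartile factors 5771 genes were lower and 9275 higher in old WT against young WT, and 1997 and 4113 in old KO against young WT. With DESeq2's size factors 2084 were lower and 1616 higher in the second of these. With at least 10 counts asked of a gene, 24 gene and library pairs were above background in young WT, and with 3 times the background 3 in old WT.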
